A study of Mus musculus with 12 samples.

Results

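The RGS genes Rgs1, Rgs2, Rgs3, Rgs10, Rgs14, Rgs16, Rgs18 and Rgs19 were followed in eosinophils sorted from mouse fat and blood. The 8 genes were taken by symbol from the 54115 genes of the summed transcript tables. The symbols were named with earlier results of these data known, and no measured value enters the rule itself. RNA of eosinophils was sequenced in 12 libraries from 5 male mice of the FVB/NJ strain. All were wild type, ate chow, received no treatment and were 20 weeks old. The groups were gonadal adipose tissue (mice 2846, 2807, 2683 and 2668), subcutaneous adipose tissue (mice 2846, 2807, 2771 and 2668) and blood (mice 2807, 2771, 2683 and 2668). Live cells with CD45, CD11b and Siglec-F at the surface were sorted, so cells other than eosinophils that carry these markers could enter the gate. Fat, but not blood per the labels, was digested with collagenase II at 1 mg/mL and 37 C for 45 min, so the tissue and the digestion cannot be told apart in any comparison of fat with blood.

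RGS proteins switch off signals from G protein-coupled receptors, the receptors that read chemokines, lipid mediators and complement fragments. An active receptor loads the G alpha subunit with GTP, which frees it from the beta-gamma pair, and both then act on their effectors. The RGS domain binds G alpha and speeds its hydrolysis of GTP, which shortens the signal. In leukocytes the family is best known for setting how long a cell answers a chemokine. Rgs1, Rgs2, Rgs3, Rgs16 and Rgs18 belong to the subfamily of mostly small RGS proteins that act on Gi and Gq, with a preference of Rgs2 for Gq. Rgs10 and Rgs14 belong to a subfamily directed at Gi, and Rgs19 belongs to a further subfamily that acts on Gi and Gz.

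The libraries held 12477671 to 23734940 estimated reads, except the subcutaneous library of mouse 2846 with 4379954. Mitochondrial ribosomal RNA took 28.0% of reads there and 4.64% to 8.74% in each other library, and its fibroblast marker sum was 3343 CPM (reads of a gene scaled to a common library size), against 133.5 to 422.1 CPM in the others. The eosinophil receptor genes Siglecf, Il5ra and Ccr3 averaged 340.6, 100.9 and 724.8 CPM in gonadal libraries, 307.0, 120.5 and 704.3 CPM in subcutaneous libraries, and 273.0, 121.6 and 1526 CPM in blood libraries. Transcripts of the granule protein genes Epx and Prg2 were scarce, with means of 4.49 and 1.013 CPM in gonadal, 3.95 and 1.38 CPM in subcutaneous and 4.45 and 3.53 CPM in blood libraries. Fewer cells of a type and less RNA per cell cannot be told apart in these sorted pools.

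Eosinophils from both fat depots had a different mix of RGS transcripts from those of blood. Rgs1 and Rgs10 were higher in fat, Rgs2, Rgs3, Rgs14 and Rgs19 were lower, Rgs18 did not pass the test, and Rgs16 was close to absent. In gonadal eosinophils 2 of the 7 tested genes were higher and 4 were lower than in blood at an adjusted p under 0.05, while over all 15367 tested genes 15.4% were higher and 11.6% were lower (27% in either direction). In subcutaneous eosinophils the counts were also 2 and 4, beside 15.4% and 11.4% of all tested genes (26.8% in either direction). The median log2 fold change of the 7 genes was -1.03 in gonadal and -0.99 in subcutaneous fat, against 0.08 and 0.07 over all genes. All tests were edgeR quasi-likelihood tests on estimated counts summed per gene, with Benjamini and Hochberg adjustment over all tested genes. The comparisons of the depots with blood share the blood libraries, so the second is no independent repeat of the first.

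**Figure D1:**
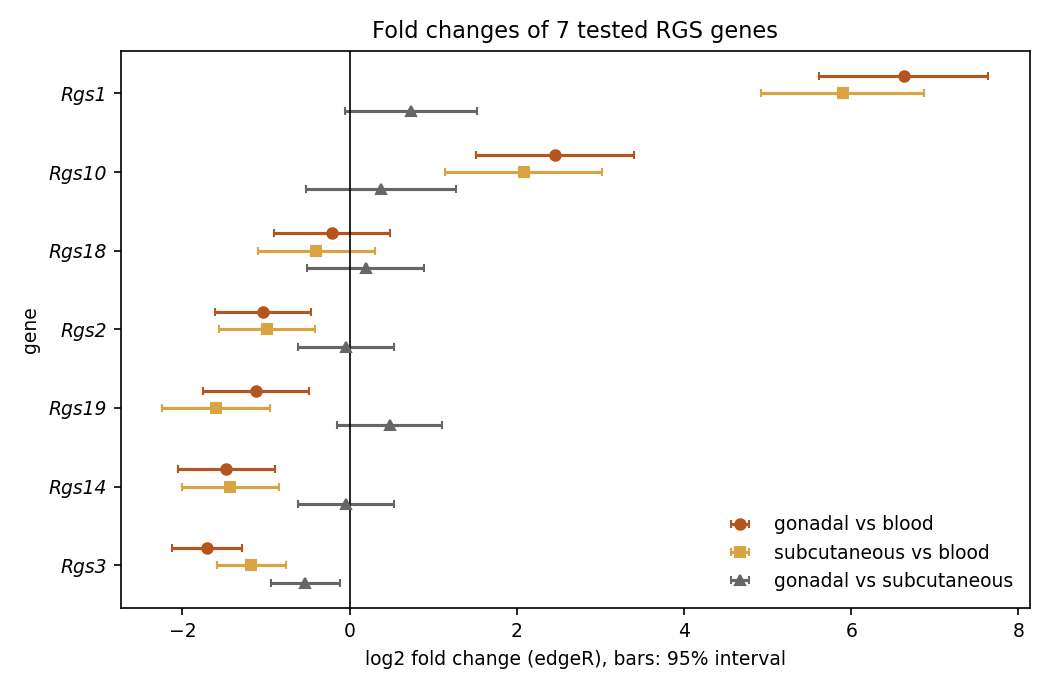
Log2 fold change of the 7 tested RGS genes (rows) in gonadal fat against blood, subcutaneous fat against blood, and gonadal against subcutaneous fat. Points are edgeR estimates and bars are 95% intervals. Rgs1 lies at 6.63 and 5.90 against blood, Rgs10 at 2.46 and 2.08, and Rgs18 has intervals that include 0 in all comparisons.

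The CPM values of the fat and blood libraries did not overlap for any of the 6 genes that passed. Over all tested genes, values did not overlap in 18.6% (higher) and 17.7% (lower) of genes in gonadal fat, and in 13.8% and 15.7% in subcutaneous fat. Of the mice, 3 gave both a gonadal and a blood library and 3 gave both a subcutaneous and a blood library. Each of the 6 genes kept its direction in 3 of 3 such mice in either depot.

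**Figure D2:**
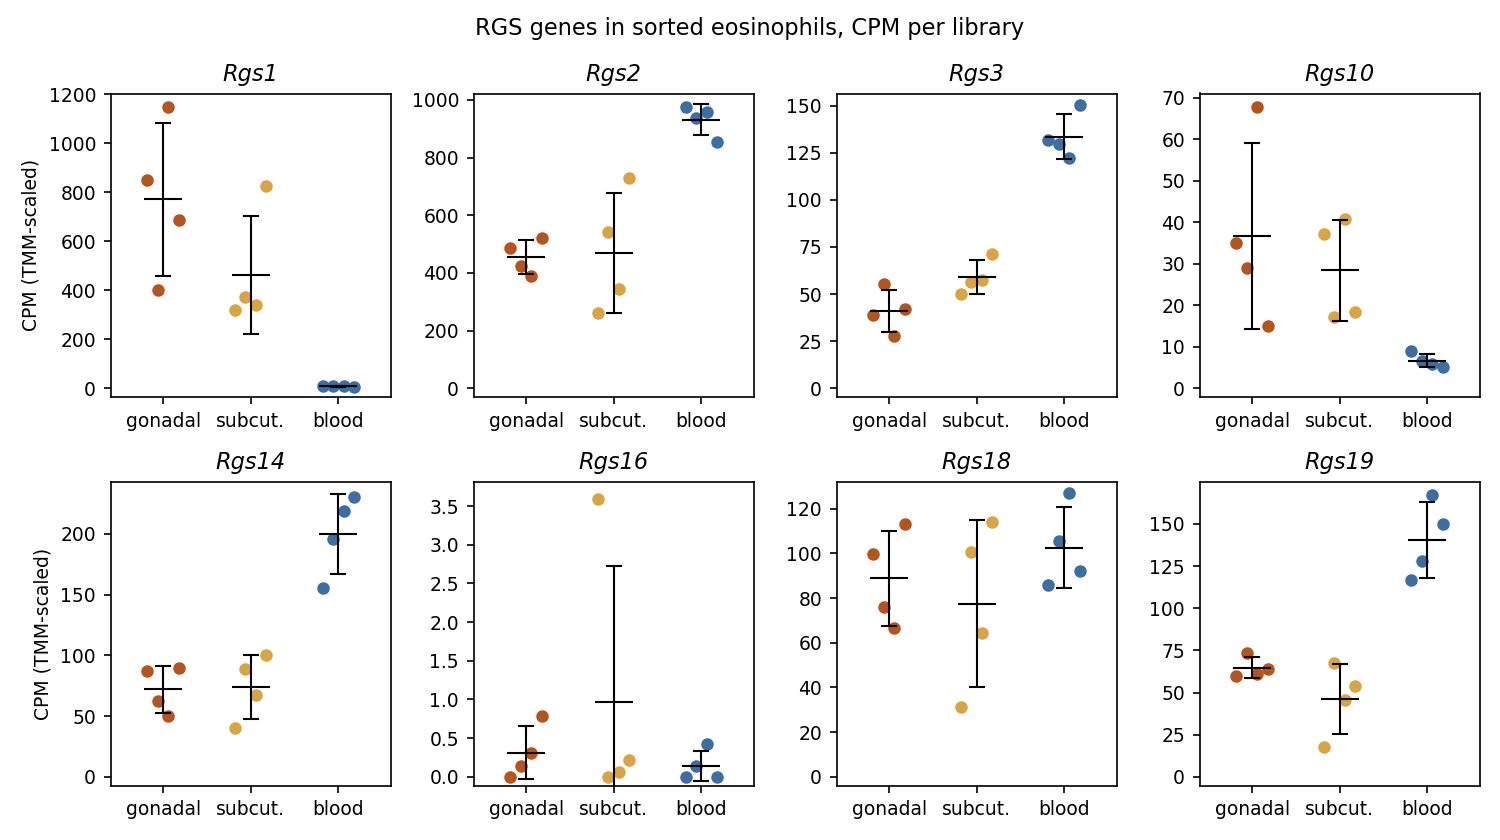
CPM (scaled by TMM library sizes) of each RGS gene in gonadal fat, subcutaneous fat and blood. Each point is 1 library, the long bar is the group mean and the whiskers are 1 SD (n = 4 libraries per group), with the Rgs16 whisker of subcutaneous fat cut off at the lower axis end. The blood libraries of Rgs1 lie between 5.21 and 10.8 CPM, below every fat library, while those of Rgs2 lie above every fat library.

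The sequence upstream of the RefSeq start site is shown for 3 genes that moved. Each has a RefSeq window at or near the start of an annotated transcript with reads. The Rgs2 site (144004149) lies between the starts of transcripts Rgs2-202 (144004161) and Rgs2-201 (144004135), so the last printed bases fall inside Rgs2-202. The Rgs10 window lies downstream of the start of transcript Rgs10-206 (128418758). RefSeq windows of build GRCm38.p6 were matched for 5 of the 8 genes (Rgs2, Rgs3, Rgs10, Rgs16 and Rgs19, 8 windows in all). The 250 bases before the start are given, 5′ to 3′ along the gene, for Rgs10 (higher in fat) at chr7:128418173-128418422, minus strand, for Rgs2 (lower in fat) at chr1:144004150-144004399, minus strand, and for Rgs19 (lower in fat) at chr2:181693978-181694227, minus strand. Capitals mark matches, on either strand, to the core of the cyclic AMP response element (TGACG), the AP-1 site (TGANTCA), the EGR core (GCGNGG), the site of GATA factors (searched as AGATAA) and the site of ETS factors such as PU.1 (searched as GAGGAA). Neighbouring EGR matches can overlap and then form a longer run of capitals.
Rgs10: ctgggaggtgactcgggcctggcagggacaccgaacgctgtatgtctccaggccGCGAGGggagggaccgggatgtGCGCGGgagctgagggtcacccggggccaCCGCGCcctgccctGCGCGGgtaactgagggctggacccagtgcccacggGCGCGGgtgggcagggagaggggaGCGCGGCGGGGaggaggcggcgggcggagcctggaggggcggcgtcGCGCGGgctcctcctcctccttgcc
Rgs2: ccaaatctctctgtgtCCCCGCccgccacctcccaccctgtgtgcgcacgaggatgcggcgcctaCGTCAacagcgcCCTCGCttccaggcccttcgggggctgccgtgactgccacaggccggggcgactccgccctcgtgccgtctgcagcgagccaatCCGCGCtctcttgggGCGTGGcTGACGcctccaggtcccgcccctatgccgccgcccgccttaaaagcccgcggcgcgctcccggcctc
Rgs19: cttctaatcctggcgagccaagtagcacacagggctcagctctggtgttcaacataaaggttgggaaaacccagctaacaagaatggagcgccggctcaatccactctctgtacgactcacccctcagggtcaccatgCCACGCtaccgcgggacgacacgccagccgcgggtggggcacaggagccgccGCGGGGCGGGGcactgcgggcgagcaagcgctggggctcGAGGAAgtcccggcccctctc

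In their full windows, which run 50 bases past the start, Rgs10 had 9 EGR cores, Rgs2 had 4 and this Rgs19 window had 3. The GC content of these windows was 76.0%, 70.0% and 66.7%. An EGR core stood in 45.5% of all 32851 RefSeq windows, so a match alone is common. Rgs2 held 2 TGACG cores, beginning 185 and 67 bases before its start, a motif present in 20.8% of windows. The printed Rgs19 window held 1 GAGGAA site, present in 28.3% of windows. No AP-1 site, present in 7.81% of windows, lay in any of the 8 windows, which says only that these letters are not there. The matches describe the sequence and were not tested against expression.

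Rgs1, which in lymphocytes damps responses to chemokines, had the greatest change among the 7 tested genes. It measured 849.7, 400.1, 1146 and 688.2 CPM in the gonadal libraries of mice 2846, 2807, 2683 and 2668. The subcutaneous libraries of mice 2846, 2807, 2771 and 2668 had 320.4, 370.9, 339.6 and 823.8 CPM, and the blood libraries of mice 2807, 2771, 2683 and 2668 had 10.8, 7.56, 7.60 and 5.21 CPM. The lowest fat library was thus far above the highest blood library. The log2 fold change was 6.63 (SE 0.47, 99.0-fold, edgeR adjusted p = 4.276e-06) in gonadal fat. In subcutaneous fat it was 5.90 (SE 0.45, 59.6-fold, edgeR adjusted p = 5.483e-06). Within single mice the log2 difference ran from 5.20 to 7.21 for gonadal fat and from 5.09 to 7.27 for subcutaneous fat.

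The early response list, 14 genes that many stimuli and cell handling switch on, was also higher in fat than in blood. Its members summed to 13250 to 17050 CPM in gonadal, 17420 to 22630 CPM in subcutaneous and 1864 to 2380 CPM in blood libraries. Within neither depot did the full order of the libraries match that of Rgs1. In gonadal fat the sum was highest in mouse 2807, which had the least Rgs1, and lowest in mouse 2683, which had the most. In subcutaneous fat mice 2807 and 2668 had the higher sums (22630 and 22580 CPM) and also the higher Rgs1. Subcutaneous mice 2846 and 2771 were lower in both. Of the 14 listed genes, 13 were higher in gonadal and 14 in subcutaneous fat, with median log2 fold changes of 4.27 and 4.73. The heat shock genes Hspa1a and Hspa1b, near-identical copies whose reads may be shared, had log2 fold changes of 9.49 and 8.62 in gonadal fat (edgeR adjusted p = 1.357e-05 and 0.0001514). T cells also carry Rgs1. T cell markers summed to 2.58 to 18.01 CPM in gonadal libraries, against 13.1 to 34.5 CPM in blood libraries. In subcutaneous libraries they summed to 26.1 to 238.4 CPM. Macrophage marker sums, given below beside Rgs10, were higher in fat than in blood. The part of digestion or of other cells, T cells and macrophages included, in the Rgs1 result was not tested.

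Rgs10 acts on Gi and is known in mouse microglia and macrophages as a brake on inflammatory activation. It had 34.95, 28.89, 67.90 and 15.05 CPM in the gonadal libraries of mice 2846, 2807, 2683 and 2668. It had 37.13, 17.27, 40.70 and 18.47 CPM in the subcutaneous libraries of mice 2846, 2807, 2771 and 2668, and 8.90, 6.67, 5.97 and 5.21 CPM in the blood libraries of mice 2807, 2771, 2683 and 2668. The groups did not overlap, although the fat libraries ranged widely. The log2 fold change was 2.46 (SE 0.44, edgeR adjusted p = 0.001869) in gonadal and 2.08 (SE 0.43, edgeR adjusted p = 0.004826) in subcutaneous fat. With an offset for the effective transcript length it was 1.07 in gonadal (edgeR adjusted p = 0.2014) and 0.96 in subcutaneous fat (edgeR adjusted p = 0.2483), and both calls were lost.

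Macrophage markers were also more abundant in fat. The 10 genes of that list summed to 1451, 3432, 4564 and 1187 CPM in the gonadal libraries of mice 2846, 2807, 2683 and 2668. They summed to 3261, 2548, 5487 and 1356 CPM in the subcutaneous libraries of mice 2846, 2807, 2771 and 2668, and to 384.0 to 916.4 CPM in blood. The library with the highest sum in each depot, gonadal mouse 2683 and subcutaneous mouse 2771, was also the one with the most Rgs10. Gonadal mouse 2668 was lowest in both values, and subcutaneous mouse 2846 came next after subcutaneous mouse 2771 in both. The remaining libraries were in a different order. Gonadal mouse 2807 had a higher marker sum than gonadal mouse 2846 but less Rgs10 (28.89 against 34.95 CPM). Subcutaneous mouse 2807 had a higher sum than subcutaneous mouse 2668 but less Rgs10 (17.27 against 18.47 CPM). Of the 10 markers, 5 were higher in gonadal and 6 in subcutaneous fat, none was lower, and none was at 0 in a group. The count was 2 to 8 in gonadal fat when 1 library was left out, moving by over 1.5 times without blood mouse 2807 or 2668 or gonadal mouse 2683. In subcutaneous fat it was 3 to 9, moving so without blood mouse 2771 or subcutaneous mouse 2771. The most abundant, Apoe, averaged 1112 ± 794 CPM in gonadal, 1373 ± 829 CPM in subcutaneous and 130.3 ± 124.3 CPM in blood libraries (SD, n = 4 each), and the part of macrophages in the Rgs10 result was not tested.

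Rgs2, which limits Gq signals and in many cells is induced by cyclic AMP, was the most abundant of the 8 genes in blood. Its gonadal libraries (mice 2846, 2807, 2683 and 2668) had 486.3, 425.6, 387.9 and 519.9 CPM. Its subcutaneous libraries (mice 2846, 2807, 2771 and 2668) had 260.5, 541.1, 344.6 and 728.3 CPM, and its blood libraries (mice 2807, 2771, 2683 and 2668) had 976.4, 938.0, 957.1 and 852.8 CPM. All blood libraries were high and close together, and the subcutaneous libraries were the most spread. Rgs2 was 2.05-fold lower in gonadal fat (log2 fold change -1.03, SE 0.27, edgeR adjusted p = 0.01351). It was 1.99-fold lower in subcutaneous fat (log2 fold change -0.99, SE 0.27, edgeR adjusted p = 0.01685). The call in subcutaneous fat ended when subcutaneous mouse 2771 was left out (edgeR adjusted p = 0.05224) and when subcutaneous mouse 2846 and blood mouse 2807 were left out together (edgeR adjusted p = 0.0544).

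Rgs3, which acts on Gi and Gq, had 38.96, 55.12, 27.80 and 41.92 CPM in the gonadal libraries of mice 2846, 2807, 2683 and 2668. In the subcutaneous libraries of mice 2846, 2807, 2771 and 2668 it had 50.31, 56.65, 57.61 and 71.45 CPM, and in the blood libraries of mice 2807, 2771, 2683 and 2668 it had 131.9, 129.7, 122.3 and 150.3 CPM. Every fat library lay well under every blood library. The log2 fold change was -1.71 (SE 0.19, edgeR adjusted p = 8.016e-05) in gonadal and -1.18 (SE 0.19, edgeR adjusted p = 0.001064) in subcutaneous fat. These changes passed the threshold in all 20 alternative settings, as did those of Rgs1 and Rgs14.

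Rgs14 is a scaffold that joins an RGS domain to Ras-binding domains and a GoLoco motif, which holds inactive Gi. It had 86.94, 62.32, 49.87 and 89.32 CPM in the gonadal libraries of mice 2846, 2807, 2683 and 2668. It had 40.43, 88.58, 67.70 and 99.92 CPM in the subcutaneous libraries of mice 2846, 2807, 2771 and 2668, and 155.8, 195.9, 218.6 and 230.6 CPM in the blood libraries of mice 2807, 2771, 2683 and 2668. Both depots lay below blood without overlap, with log2 fold changes of -1.47 (SE 0.27, edgeR adjusted p = 0.002075) in gonadal and -1.43 (SE 0.27, edgeR adjusted p = 0.00258) in subcutaneous fat.

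Rgs19, also called GAIP, had 60.06, 73.70, 61.14 and 64.22 CPM in the gonadal libraries of mice 2846, 2807, 2683 and 2668. It had 17.67, 67.50, 45.65 and 53.86 CPM in the subcutaneous libraries of mice 2846, 2807, 2771 and 2668, and 116.6, 128.2, 167.4 and 149.9 CPM in the blood libraries of mice 2807, 2771, 2683 and 2668. The gonadal libraries were close together and all below blood, and the shallow subcutaneous library of mouse 2846 was the lowest. The log2 fold change was -1.12 (SE 0.29, edgeR adjusted p = 0.01486) in gonadal and -1.59 (SE 0.30, edgeR adjusted p = 0.002485) in subcutaneous fat. In the fit that blocks on mouse, the gonadal value was -0.94 and missed the threshold (edgeR adjusted p = 0.05422).

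Neutrophil markers moved in the same direction as the 4 lower genes. The 9 markers summed to 187.1 to 408.6 CPM in gonadal, 170.0 to 680.8 CPM in subcutaneous and 2376 to 3701 CPM in blood libraries, and 2 of the 9 were at 0 in both depots. Of the 7 tested, 6 were lower in each depot. Most of the blood sum was Retnlg, with a mean of 2582 ± 493 CPM, while S100a9, a defining neutrophil gene, averaged 154.8 ± 56.8 CPM (SD, n = 4 each). Eosinophil markers were lower in part too, with sums of 1597 to 4303 CPM in gonadal, 1362 to 4091 CPM in subcutaneous and 3783 to 4719 CPM in blood libraries. Of these 10 markers 0 were higher and 4 lower in each depot, namely Ccr3 and the ribonuclease genes Ear1, Ear2 and Ear6, which are close copies that may share reads. Blocking on mouse left 3 in gonadal fat, without Ccr3 (edgeR adjusted p = 0.05128). The part of neutrophils, or of a change in eosinophil RNA as a whole, in the lower RGS genes was not tested.

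Rgs18, abundant in platelets and myeloid cells, where it acts on Gi and Gq, had 99.77, 76.08, 66.48 and 113.1 CPM in the gonadal libraries of mice 2846, 2807, 2683 and 2668. It had 31.14, 100.5, 64.48 and 113.8 CPM in the subcutaneous libraries of mice 2846, 2807, 2771 and 2668, and 85.88, 105.4, 127.1 and 92.03 CPM in the blood libraries of mice 2807, 2771, 2683 and 2668. The groups overlapped widely. The log2 fold change was -0.21 in gonadal fat (95% interval -0.90 to 0.49, edgeR adjusted p = 0.6747) and -0.40 in subcutaneous fat (95% interval -1.10 to 0.30, edgeR adjusted p = 0.3841). Changes inside these intervals could not be detected here. Rgs16, inducible by activation in T cells, had 0, 2, 8 and 13 counts in gonadal, 12, 0, 1 and 3 in subcutaneous and 0, 3, 8 and 0 in blood libraries, and fell under the filter on low counts, so it was not tested.

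Between the depots, none of the 7 genes passed the edgeR test, and 1 of all tested genes did (0.00651%). At an unadjusted p under 0.05 there were 1 of the 7 RGS genes and 1234 of all genes, and neither DESeq2 nor limma-voom called an RGS gene. That gene was Rgs3, with 40.9 ± 11.2 CPM in gonadal and 59.0 ± 8.91 CPM in subcutaneous fat (SD, n = 4 each), with a log2 fold change of -0.53 (95% interval -0.94 to -0.12, edgeR adjusted p = 0.5014). It was lower in gonadal fat in 3 of 3 mice with both depots. Rgs1 had 771.0 ± 311.5 CPM in gonadal and 463.7 ± 241.0 CPM in subcutaneous fat, with a log2 fold change of 0.73 (95% interval -0.06 to 1.53, edgeR adjusted p = 0.654). It was higher in gonadal fat in 2 of 3 mice. The other 5 genes had log2 fold changes between -0.05 (Rgs14) and 0.48 (Rgs19), and edgeR intervals that include 0. The values of all 7 genes overlapped between depots, while over all genes 1.94% were higher and 1.69% lower in gonadal fat without overlap.

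Levels of different genes were compared in TPM, a scaled unit that divides by transcript length. In gonadal fat Rgs1 averaged 164.4 ± 45.9 TPM and Rgs2 112.7 ± 18.5 TPM, with Rgs1 above Rgs2 in 3 of 4 libraries, so the order of these neighbours lay within their spread. Next came Rgs19 (40.3 TPM), Rgs10 (19.8 TPM), Rgs18 (16.1 TPM), Rgs14 (11.6 TPM), Rgs3 (7.49 TPM) and Rgs16 (0.051 TPM). Here the ranges of neighbours overlapped except between Rgs2 and Rgs19 and between Rgs3 and Rgs16. Subcutaneous fat had the same order of means, with Rgs1 at 112.6 ± 68.8 TPM and Rgs2 at 110.4 ± 56.7 TPM (SD, n = 4 each).

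Blood had another order. Rgs2 came first there with 223.1 ± 64.5 TPM, then Rgs19 with 80.3 ± 13.5 TPM, Rgs14 with 31.1 ± 7.96 TPM and Rgs3 with 26.6 ± 8.36 TPM (SD, n = 4 each). Rgs18 (17.0 TPM), Rgs10 (10.2 TPM), Rgs1 (1.22 TPM) and Rgs16 (0.015 TPM) followed. Ranges overlapped between Rgs14 and Rgs3, Rgs3 and Rgs18, and Rgs18 and Rgs10, and the other neighbours were separate. Rgs10 overlapped between fat and blood on the TPM scale, with 9.49 to 39.6 TPM in gonadal, 8.86 to 24.5 TPM in subcutaneous and 3.59 to 23.3 TPM in blood libraries.

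The summed level of the 8 genes was 306.8 to 422.0 TPM in gonadal, 145.1 to 422.9 TPM in subcutaneous and 261.8 to 501.1 TPM in blood libraries, and these ranges overlapped. The shares of Rgs1 and Rgs2 in that sum did not overlap between fat and blood. Rgs1 supplied 31.8% to 51.7% of the sum in gonadal, 28.7% to 49.2% in subcutaneous and 0.172% to 0.517% in blood libraries. Rgs2 supplied 23.1% to 35.8% in gonadal, 32.9% to 43.2% in subcutaneous and 53.8% to 59.8% in blood libraries. The ratio of Rgs1 to Rgs2 in TPM was 0.888 to 2.24 in gonadal and 0.664 to 1.49 in subcutaneous libraries, while in blood Rgs2 exceeded Rgs1 by 115.5 to 313.2 times.

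**Figure D3:**
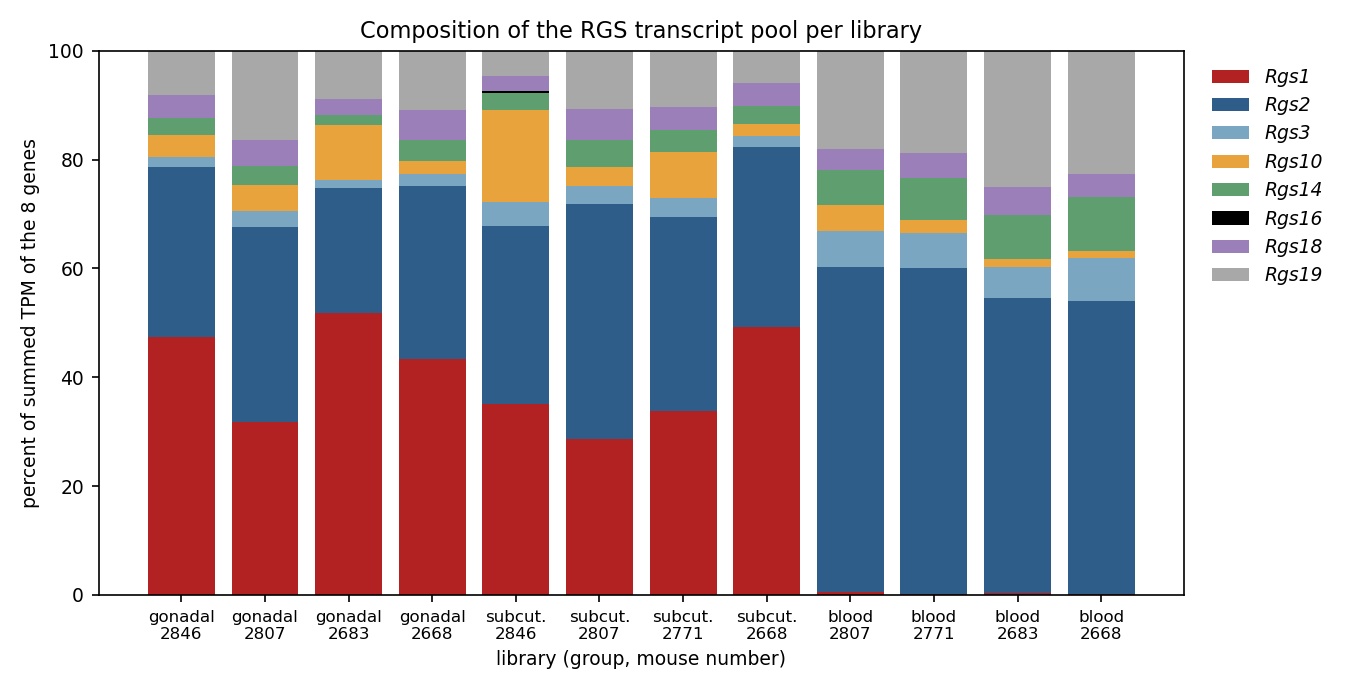
Percent of the summed TPM of the 8 RGS genes (vertical axis) supplied by each gene in each library (bars, labelled by group and mouse). Rgs1 makes up 28.7% or more of every fat library and at most 0.517% of a blood library, where Rgs2 and Rgs19 make up most of the sum.

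The estimated reads of a gene were also divided among its annotated transcripts. For Rgs1, the shorter transcript Rgs1-204 (1328 nt, annotated as a target of nonsense-mediated decay) took 49.0 ± 3.10% of reads in gonadal, 56.0 ± 1.61% in subcutaneous and 19.1 ± 17.1% in blood libraries (SD, n = 4 each). The retained-intron transcript Rgs1-205 (5843 nt) took 33.3 ± 2.98%, 30.7 ± 5.56% and 47.4 ± 6.41% in gonadal, subcutaneous and blood libraries. The protein-coding Rgs1-208 (3841 nt) took 11.4%, 5.43% and 12.95% in the same groups. Blood had only 105 to 182 Rgs1 reads per library, so its shares are imprecise: those of Rgs1-204 ran from 0% to 39.0% and those of Rgs1-208 from 0% to 30.8%. The fat shares lay closer together. Counted as TPM instead of reads, which favours short transcripts, Rgs1-205 took 8.79% in gonadal, 7.31% in subcutaneous and 18.9% in blood libraries. Rgs1-204 took 65.1%, 64.8% and 36.55% of TPM in the same groups. Its blood shares of 58.4% (mouse 2807) and 59.1% (mouse 2668) lay inside the fat range of 55.25% to 76.5%. Blood mice 2771 and 2683 had 28.7% and 0%. Total RNA libraries hold unspliced RNA, which adds reads to transcripts with introns.

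Rgs10 reads came mainly from Rgs10-201 (880 nt), with 97.0 ± 4.61% in gonadal, 73.7 ± 30.6% in subcutaneous and 63.1 ± 15.8% in blood libraries (SD, n = 4 each). The low subcutaneous mean came from mouse 2846, in which the retained-intron transcript Rgs10-202 took 69.0% of reads. In blood the short Rgs10-206 (373 nt) took 19.4 ± 7.14%, against 0.35 ± 0.70% in gonadal and 2.87 ± 3.32% in subcutaneous libraries. Rgs10-201 thus took 23.9% of the TPM in blood, against 89.1% in gonadal and 58.6% in subcutaneous libraries. By reads, the main transcripts of Rgs2 (Rgs2-202, 74.3%, 74.1% and 75.7%) and Rgs3 (Rgs3-204, 56.5%, 52.7% and 57.5%) took similar mean shares in gonadal, subcutaneous and blood libraries. Counted as TPM, the shorter Rgs2-201 (763 nt, annotated as a target of nonsense-mediated decay) took 51.3%, 42.5% and 38.2% in these groups. Rgs2-202 then took 35.0%, 35.1% and 35.1%. The Rgs3-204 share of reads varied widely in fat, with an SD of 19.1% in gonadal and 16.6% in subcutaneous against 1.82% in blood libraries. The retained-intron Rgs3-214 took 27.8% in gonadal mouse 2683 and 44.9% in subcutaneous mouse 2668. Rgs14-201 took 85.0 ± 6.42% in gonadal, 81.2 ± 11.7% in subcutaneous and 64.6 ± 4.26% in blood libraries, where the retained-intron Rgs14-204 took 15.0 ± 3.39% (SD, n = 4 each). Rgs18 and Rgs16 have a single transcript in the tables, and 6 transcripts of Rgs19 had a mean share of at least 10% in a group.

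**Figure D4:**
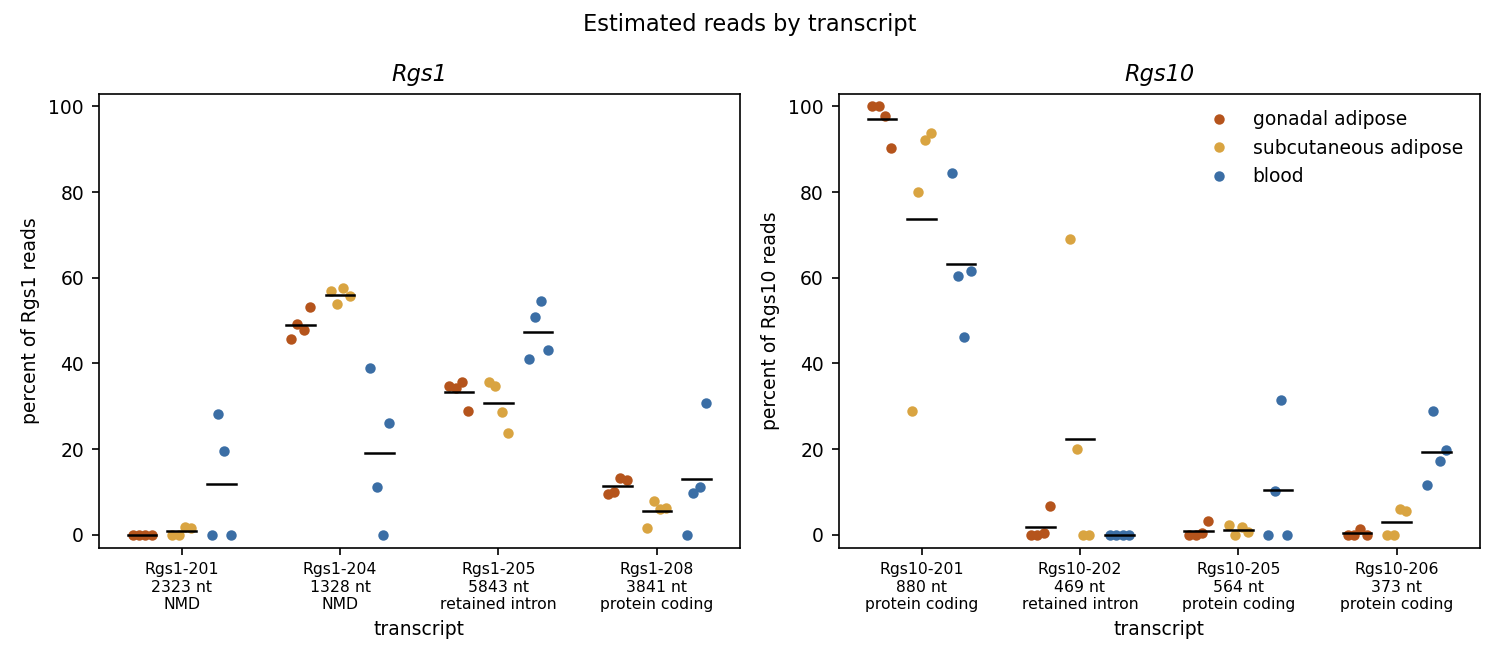
Percent of the estimated reads of Rgs1 (left) and Rgs10 (right) assigned to each transcript with a mean share of at least 10% in a group, with its length and annotated type (NMD, nonsense-mediated decay). Points are libraries and bars are group means. The fat libraries of Rgs1-204 lie between 45.8% and 57.6%, above all blood libraries, and the blood libraries of Rgs10-206 lie above all fat libraries. Counted as TPM instead of reads, fat and blood overlap for both transcripts.

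Of the 8 genes, 4 lie on chromosome 1 of GRCm38, and 3 of these are in 1 cluster on the minus strand. Rgs2 spans chr1:143999338-144004161, Rgs1 chr1:144242296-144249242 and Rgs18 chr1:144752683-144775435, with gaps of 238 kb and 503 kb, while Rgs16 at chr1:153740349-153745468 is 8965 kb further. These near neighbours did not move together, since Rgs1 was higher in fat, Rgs2 lower, and Rgs18 not called. Between Rgs2 and Rgs1 lies Rgs13, with 0 counts in gonadal, 19 in subcutaneous and 41 in blood libraries over each group. Rgs21, between Rgs1 and Rgs18, had 0 counts in all libraries. Beyond Rgs2, Glrx2, Trove2 and Uchl5 were not called in either depot, with log2 fold changes from -0.91 to 0.22 against blood. The other 4 genes are Rgs3 at chr4:62559847-62704001, Rgs10 at chr7:128373621-128418758, Rgs14 at chr13:55369732-55384687 and Rgs19 at chr2:181688419-181693977. Rgs10 overlaps Gm15503 on the same strand over 3374 bases, and that gene averaged 2.23 CPM in gonadal, 4.25 CPM in subcutaneous and 0.669 CPM in blood libraries. Antisense genes overlap Rgs3 (Gm11209) and Rgs16 (Gm28513), both with group means of at most 0.401 CPM.

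The rest of the RGS family was scarce. Of 15 further RGS and RGS-binding genes, 5 passed the filter on low counts. Rgs4, a Gi and Gq regulator studied mostly in brain and heart, had 11, 249, 7 and 53 counts in the gonadal libraries of mice 2846, 2807, 2683 and 2668. It had 72, 32, 0 and 17 counts in the subcutaneous libraries of mice 2846, 2807, 2771 and 2668, and 0 in blood. Against a floor of 3 counts over the blood group, it was at least 117.1-fold higher in gonadal fat and at least 68.3-fold higher in subcutaneous fat. Without the gonadal library of mouse 2807 the bound was 32.4-fold, and without the subcutaneous library of mouse 2846 it was 29.8-fold. Rgs12 was higher in gonadal fat, with 8.05 ± 1.64 CPM against 4.24 ± 1.11 CPM in blood (SD, n = 4 each, edgeR adjusted p = 0.04577).

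In subcutaneous fat the called genes were Rgs4 (edgeR adjusted p = 0.03616), Rgs5 (edgeR adjusted p = 0.04445) and Rgs7bp (edgeR adjusted p = 0.01784). Rgs5, a pericyte gene, reached 45.2 CPM in the subcutaneous library of mouse 2846, against 1.36 to 4.75 CPM in the other subcutaneous libraries and 0.838 to 3.44 CPM in blood. Rgs7bp reached 16.2 CPM there, against 0 to 1.19 CPM in the other subcutaneous libraries. That is also the library with the highest fibroblast marker sum, 3343 CPM, and the part of stromal cells in these values was not tested. None of the 5 genes was called in all settings, the counts of 2 and 3 were both 0 with mouse as a block, and they ran from 0 to 4 when 1 library was left out. For gonadal fat leaving out any of the 12 libraries moved the count by over 1.5 times. For subcutaneous fat this held for blood mice 2771, 2683 and 2668, gonadal mouse 2668 and subcutaneous mouse 2846. Rgs11 was not called in either depot (edgeR adjusted p = 0.4973 and 0.338).

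The partners of RGS proteins were taken from lists of G protein genes, whose counts stand beside the shares over all tested genes given above (15.4% higher and 11.6% lower in gonadal fat, 15.4% and 11.4% in subcutaneous fat). Of 10 tested G alpha subunits, 1 was higher and 1 lower in gonadal fat, and 0 were higher and 2 lower in subcutaneous fat. Gnaq, the Gq subunit, had 111.5 ± 6.64 CPM in gonadal fat and 162.2 ± 15.1 CPM in blood (SD, n = 4 each, log2 fold change -0.54, edgeR adjusted p = 0.0113). Gna12 was the higher one, with 65.5 ± 32.5 CPM in gonadal fat and 34.5 ± 2.51 CPM in blood (SD, n = 4 each, edgeR adjusted p = 0.04632). In subcutaneous fat Gnaq and Gnai2, a Gi subunit, were the 2 lower genes, and the fit that blocks on mouse called Gnaq alone (Gnai2 edgeR adjusted p = 0.05783). These counts ran from 0 to 3 when 1 library was left out. They moved by over 1.5 times without blood mouse 2807, 2771, 2683 or 2668, gonadal mouse 2807 or 2683, or subcutaneous mouse 2846, 2807 or 2771.

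Of 11 tested beta and gamma subunits, 1 was higher and 2 were lower in gonadal fat, and 2 were higher and 3 lower in subcutaneous fat. Gng2 had 55.4 ± 8.67 CPM in gonadal fat and 114.4 ± 8.84 CPM in blood (SD, n = 4 each, log2 fold change -1.05, edgeR adjusted p = 0.002128), and it was lower in all 20 alternative settings in either depot. Gnb2 was lower (log2 fold change -0.56, edgeR adjusted p = 0.02042) and Gng12 higher (log2 fold change 0.60, edgeR adjusted p = 0.009709) in gonadal fat. In the fit that blocks on mouse, the 2 lower genes in gonadal fat became 1, and in subcutaneous fat the 2 higher ones became 1 and the 3 lower ones 2. Gnb2 is the gene that lost its call in gonadal fat (edgeR adjusted p = 0.05019). The counts of higher and of lower subunits ran from 1 to 3 when 1 library was left out. They moved by over 1.5 times without blood mouse 2807, 2771, 2683 or 2668, gonadal mouse 2807, or subcutaneous mouse 2846 or 2771.

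Among genes that handle G alpha outside the receptor, Ric8a and Gpsm3 were lower. Ric8a, a chaperone that G alpha needs to fold, had 79.7 ± 8.69 CPM in gonadal fat and 331.2 ± 44.8 CPM in blood (SD, n = 4 each, log2 fold change -2.06, edgeR adjusted p = 9.172e-06). Gpsm3, which carries GoLoco motifs as Rgs14 does, had 57.8 ± 11.2 CPM in gonadal fat and 164.1 ± 14.3 CPM in blood (SD, n = 4 each, log2 fold change -1.51, edgeR adjusted p = 0.0009248). They were the 2 lower genes of the 5 tested in each depot, and both were lower in all 20 alternative settings. Ric8b was higher in both depots and Gpsm1 in subcutaneous fat, counts of 1 and 2. Blocking on mouse ended the Ric8b call in gonadal fat (edgeR adjusted p = 0.08151) and in subcutaneous fat (edgeR adjusted p = 0.1173), and that of Gpsm1 in subcutaneous fat (edgeR adjusted p = 0.09579). The subcutaneous count was then 0. Counts of higher genes ran from 0 to 2 in either depot without single libraries of all 3 groups. Of the 12 libraries, leaving out all but subcutaneous mouse 2846 moved at least 1 of these counts by over 1.5 times.

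Of 9 tested genes with an RGS homology domain, 1 was higher and 2 were lower in gonadal fat, and 1 was higher and 3 lower in subcutaneous fat. Axin2, which uses that domain in the Wnt destruction complex and not on G alpha, had 51.5 ± 17.5 CPM in gonadal fat and 212.3 ± 29.0 CPM in blood (SD, n = 4 each, log2 fold change -2.04, edgeR adjusted p = 0.0007001). Arhgef1, which restrains G alpha of the Gna12 and Gna13 class, had 704.1 ± 172.9 CPM in gonadal fat and 1232 ± 150.5 CPM in blood (SD, n = 4 each, log2 fold change -0.81, edgeR adjusted p = 0.01511). In gonadal fat both were lower in all 20 alternative settings. Arhgef12, of the same class, was higher (log2 fold change 2.49, edgeR adjusted p = 0.02925). It was not called with mouse as a block in either depot, nor without blood mouse 2771, 2683 or 2668, gonadal mouse 2807 or 2683 (gonadal fat), or subcutaneous mouse 2846 or 2771 (subcutaneous fat). Among 7 receptor kinases and arrestins, 0 were higher and 3 lower in each depot (Grk2, Grk6 and Arrb2). Grk2, which phosphorylates active receptors, had 405.2 ± 77.5 CPM in gonadal fat and 810.7 ± 51.1 CPM in blood (SD, n = 4 each, log2 fold change -1.0, edgeR adjusted p = 0.002268) and was called in all settings. In subcutaneous fat the count was 2 when blocking on mouse, without Arrb2 (edgeR adjusted p = 0.1063), and as low as 1 without blood mouse 2771, 2683 or 2668 or subcutaneous mouse 2846 or 2771.

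Of 8 tested effectors of the beta-gamma pair, 0 were higher and 5 lower in each depot, beside 11.6% and 11.4% of all genes lower, and the list medians were -0.98 in gonadal and -0.95 in subcutaneous fat. The 5 were Pik3cg, Pik3r5 and Pik3r6 (the catalytic and regulatory subunits of PI3K gamma), Prex1 (a Rac activator) and Rasgrp2, and all 5 were called in all 20 alternative settings in either depot. Rasgrp2, which activates Rap in answer to calcium and diacylglycerol and so lies a step further from the pair than the list name says, had 38.7 ± 14.6 CPM in gonadal fat and 346.5 ± 48.8 CPM in blood (SD, n = 4 each, log2 fold change -3.17, edgeR adjusted p = 0.0002583). Pik3r5 had 146.4 ± 30.4 CPM in gonadal fat and 430.4 ± 57.8 CPM in blood (SD, n = 4 each, log2 fold change -1.56, edgeR adjusted p = 6.198e-05). In subcutaneous fat their log2 fold changes were -2.33 and -1.64.

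Gq effectors showed 0 higher and 6 lower of 11 in gonadal fat and 0 higher and 5 lower in subcutaneous fat. Prkcb, a protein kinase C, had 118.3 ± 9.11 CPM in gonadal fat and 247.3 ± 21.5 CPM in blood (SD, n = 4 each, log2 fold change -1.06, edgeR adjusted p = 0.0009563). Itpr3, an inositol trisphosphate receptor, had 139.1 ± 43.4 CPM in gonadal fat and 338.9 ± 20.8 CPM in blood (SD, n = 4 each, log2 fold change -1.28, edgeR adjusted p = 0.003018). The subcutaneous count of lower genes fell as low as 2 without blood mouse 2771, 2683 or 2668 or subcutaneous mouse 2846 or 2771. Without subcutaneous mouse 2668, 1 gene was higher there.

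Of 17 genes of the cyclic AMP branch, 5 were higher and 2 lower in gonadal fat, and 4 were higher and 1 lower in subcutaneous fat. Pde4b, which degrades cyclic AMP, had 524.8 ± 226.5 CPM in gonadal fat and 211.7 ± 17.3 CPM in blood (SD, n = 4 each, log2 fold change 1.31, edgeR adjusted p = 0.01654). Prkar2a, a regulatory subunit of protein kinase A, was higher (log2 fold change 1.10, edgeR adjusted p = 0.01647), and Prkacb, a catalytic subunit, was lower (log2 fold change -0.53, edgeR adjusted p = 0.02311). Creb1, the factor that binds the response element, had 90.6 ± 11.1 CPM in gonadal fat and 148.2 ± 9.48 CPM in blood (SD, n = 4 each, log2 fold change -0.71, edgeR adjusted p = 0.003017). Blocking on mouse left 3 higher and 1 lower in gonadal fat, and 2 higher in subcutaneous fat. Prkar2a and Prkacb were among the calls lost that way in gonadal fat (edgeR adjusted p = 0.05092 and 0.06111). Adcy7 (log2 fold change 0.83) and Crem (2.44) were higher in gonadal fat in all 20 alternative settings. Crem was so in subcutaneous fat too (log2 fold change 3.59). The higher counts ran from 2 to 6 and from 1 to 5 when 1 library was left out, and moved by over 1.5 times without blood mouse 2771, 2683 or 2668 or, in subcutaneous fat, gonadal mouse 2846. The lower count in gonadal fat was 1 without blood mouse 2807, 2771 or 2683 or gonadal mouse 2846.

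The receptors themselves moved in both directions. Of 34 tested receptors of granulocytes, 9 were higher and 10 lower in gonadal fat, and 7 were higher and 10 lower in subcutaneous fat. Adora2a, an adenosine receptor that raises cyclic AMP, had 113.8 ± 138.2 CPM in gonadal fat and 3.36 ± 0.66 CPM in blood (SD, n = 4 each, log2 fold change 5.08, edgeR adjusted p = 0.008738). Gpr35 had 41.05 ± 8.04 CPM in gonadal fat and 13.1 ± 2.65 CPM in blood (SD, n = 4 each, log2 fold change 1.65, edgeR adjusted p = 0.0001783). Cxcr2, the neutrophil chemokine receptor, had 0.894 ± 0.863 CPM in gonadal fat and 56.4 ± 18.1 CPM in blood (SD, n = 4 each, log2 fold change -6.01, edgeR adjusted p = 0.001706), beside the neutrophil marker sums above. Gpr18 had 0.998 ± 0.640 CPM in gonadal fat and 33.03 ± 7.20 CPM in blood (SD, n = 4 each, log2 fold change -5.05, edgeR adjusted p = 0.000566). The higher counts fell as low as 4 and 3 when 1 library was left out, over 1.5 times lower without blood mouse 2771 or 2668 or, in gonadal fat, gonadal mouse 2807.

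**Figure D5:**
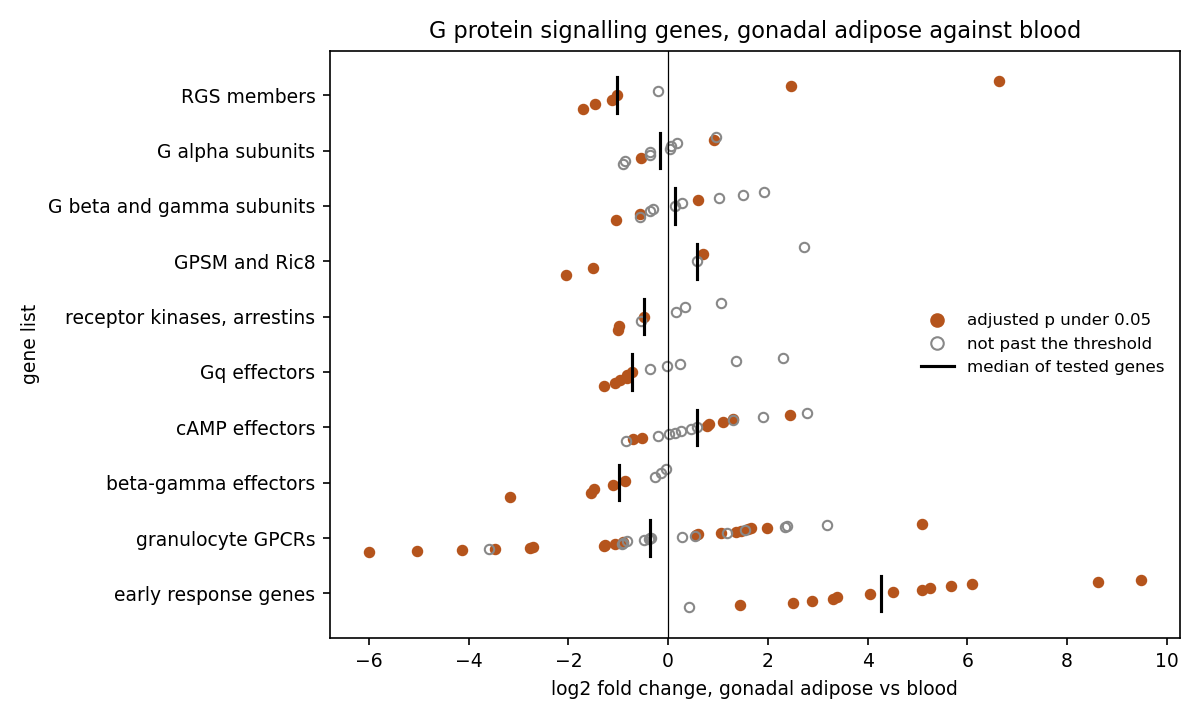
Log2 fold change in gonadal fat against blood (horizontal axis) of each tested gene in 10 lists (rows), from the RGS genes through their partners and effectors to the early response genes. Filled points have an edgeR adjusted p under 0.05, open points do not, and the bar is the median of the list. The beta-gamma effectors have a median of -0.98 and the early response genes one of 4.27, against 0.08 over all tested genes.

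The genes whose profiles over the 12 libraries were most like those of the RGS genes were sought among 5517 protein-coding genes with a mean of at least 20 CPM. Likeness was the root mean square difference of centred log2 CPM, in which a shared gap between fat and blood weighs most. Rgs1 was nearest to Ifrd1 (0.52) and Ccrl2 (0.62), against its own SD of 2.97 over the libraries. Rgs10 was nearest to Snx5 (0.20) and Appl2 (0.29), with its own SD at 1.16. Rgs2 was nearest to the integrin gene Itgam (0.15) and Arhgdib (0.18), with its own SD at 0.61. Rgs3 was nearest to Zfyve27 (0.19) and Rnf167 (0.21), Rgs14 to Gm20605 and Sun2 (both 0.16), and Rgs19 to Pqlc3 (0.20) and Klhdc10 (0.27). Rgs18 was nearest to Jrkl and Ddx39 (both 0.19), with its own SD at 0.52. The libraries are shared by all these profiles, so the distances are a description.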

How the data were processed

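RNA of sorted eosinophils was sequenced with a stranded total RNA kit for low input, per the labels. Trim Galore 0.6.4, Salmon 1.6.0, DESeq2 1.30.1 and build mm10 are named in the submitters' processing notes. The deposited tables give estimated counts, TPM and effective lengths for 140992 transcripts, per the file headers. The annotation release and the strand setting are not given in the sources used here. With GENCODE M21 (GRCm38), 139791 transcripts matched a gene. The 1201 others, 0.351% to 0.538% of reads, were left out. Estimated counts were summed per gene and rounded, and TPM was summed for levels between genes.

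Tests used edgeR 4.0.16 in R 4.3.3 (robust quasi-likelihood, TMM, filterByExpr, all 12 libraries, group only), which left 15367 genes. The threshold was an adjusted p of 0.05. SE is the log2 fold change divided by the square root of F. The edgeR fit was tested on simulated data with known changes. CPM uses TMM-scaled library sizes. Alternatives were mouse as a block, DESeq2 1.42.0, limma-voom 3.58.1 with sample weights, other size factors, no filter, only the compared groups, a length offset and libraries left out. The floor for a group without counts is 3 counts. Intervals and floors cover counting error or the spread of libraries as modelled, and reads without molecular identifiers are not independent molecules.

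Mouse numbers mark the animal and so pair libraries. Deviations from group means correlated at 0.0842 on average over 9 same-mouse pairs (-0.111 to 0.358) and at -0.0188 over 39 pairs of different mice. The RGS genes and all lists were chosen with earlier results of these data known, so no list was tested. Named genes are the 8 members, tested family genes, up to 2 called genes per list and direction with the greatest change in gonadal fat and at least 20 CPM, the 2 nearest genes per member, the 2 most abundant genes per marker list, and Siglecf, Ccr3, Il5ra, Epx and Prg2. Gnai2, Gpsm1, Arrb2, Adcy7, Crem, Pik3cg, Pik3r6, Prex1, Ear1, Ear2, Ear6 and the chromosome 1 neighbours were named after their values were seen. Sequences come from RefSeq promoter windows.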

Additional observations from a re-analysis of the deposited data

Results flagged for a closer look

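Of the 24 group ranges of CPM checked for a single distant library, 2 stood apart, and chance gives about 1 in 20. In subcutaneous fat, Rgs1 was 824 CPM in the library of mouse 2668, while the other 3 libraries had 320.4 to 370.9 CPM. The gap was 0.900 of the group's range, above Dixon's critical value for 4 samples. Rgs16 was 3.59 CPM (12 counts) in the subcutaneous library of mouse 2846, while the others had 0 to 0.221 CPM, a gap of 0.939 of the range, also above Dixon's critical value. That library is the shallowest, with 4379954 estimated reads.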

How the results depend on the processing

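Over 20 alternative settings the 7 tested RGS genes gave 420 fold changes, of which 403 kept their direction and side of the threshold, 5 lost their call, 12 changed sign and 0 gained a call. The lost calls are given beside Rgs10, Rgs19 and Rgs2 above. With the effective length offset 1 RGS gene instead of 2 was higher in either depot, and the lost one was Rgs10. Leaving out 1 library gave 2 higher and 4 lower RGS genes in gonadal fat, and 2 higher and 3 to 4 lower in subcutaneous fat. All 12 changes of sign were between the depots, where no RGS gene was called.

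With mouse as a block (the paired fit), the log2 fold change between depots was 0.01463 for Rgs2 and 0.00182 for Rgs14, against -0.04 and -0.05 without it. The block gave 3277 called genes in gonadal and 2910 in subcutaneous fat, against 4152 and 4121, and 0 between depots, against 1. Among the 7 tested RGS genes it ended no call other than that of Rgs19 in gonadal fat. Without single libraries, the depot difference ran from -0.2489 to 0.259 for Rgs2, from -0.2475 to 0.1397 for Rgs14, from -0.09779 to 0.643 for Rgs10 and from -0.06895 to 0.4429 for Rgs18. With subcutaneous mouse 2846 and blood mouse 2807 left out together it was -0.06865 for Rgs18.

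Over all genes, limma-voom called 6484 in gonadal fat. Leaving out 1 library gave 2753 (without blood mouse 2771) to 5075 there and 2737 (without blood mouse 2683) to 4256 in subcutaneous fat. Between depots DESeq2 called 157 genes, limma-voom 0, the fit of only these groups 0, the fit without the named pair 0, and fits without 1 library 0 to 7. The cause was not tested. Depth limits Rgs16 in all libraries and every low gene in the subcutaneous library of mouse 2846.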
